A study of Mus musculus with 2 samples.

Results

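The genes described here are 42 interstitial matrix glycoprotein and proteoglycan genes, out of 20884 mouse genes with a named probe on the array used. They were taken by symbol from a list chosen with earlier results of these data known. Each symbol was found on the array through the RefSeq transcript that the scanner files give for a probe. The list holds 13 genes of elastic fibres and microfibrils, 18 genes of matricellular and cell-binding glycoproteins, and 11 proteoglycan genes. A probe was found for 41 of the 42 genes, and Prelp, a leucine-rich proteoglycan that anchors collagen, had none. These 41 genes had 52 probes, and 10 of them had several.

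RNA of differentiated small proliferative adipocytes (SPAD) was set against RNA of differentiated stromal vascular cells (SVCD; the labels spell the second word "viscular"). Both preparations started from collagenase-digested epididymal fat of male C57/BL mice: the small adipocytes sedimented when the floating cells were spun a second time, and the stromal cells came from the phase below the floating cells. Both were grown to 90% confluency, given insulin, dexamethasone and IBMX, an adipogenic mixture, for 3 days, and kept for a further 2 days without it, so that SVCD is itself a differentiated culture and not an untreated one. Each group is 1 one-colour Agilent array labelled from 30 ng of RNA, and the labels give neither the age of the mice nor the number of animals or cultures behind an RNA. With 1 array per group the differences have no replicate check, and none of them could be tested. The descriptions name the samples without the word "differentiated", and the titles were followed.

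The interstitial matrix is the meshwork that fibroblasts and related cells lay down around themselves. Fibrillin microfibrils carry elastin and bind latent growth factors, matricellular proteins such as thrombospondins, tenascins and periostin tune how cells hold to the matrix, and small leucine-rich proteoglycans such as decorin set the spacing of collagen fibrils. In adipose tissue the matrix surrounds each fat cell, and its makeup changes as precursors become adipocytes.

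Signal below is the processed spot intensity, linear and background-subtracted. A difference is the log2 signal of SPAD minus that of SVCD after each array's 75th percentile (622 in SPAD, 678 in SVCD) was subtracted. The error after ± is the SD between repeat spots of one probe at that brightness, combined over both arrays; it ran from 0.08 to 0.49 for these genes and covers spot noise only, not cultures, extractions or labelling. A gene was counted as higher or lower when it lay at least 2-fold apart (a difference of 1 or more in size) and was well above background on both arrays, by the flag in the scanner files.

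The arrays were alike in quality: 64.5% of probes in SPAD and 65.6% in SVCD were well above background, no spot was saturated, and scaled signals correlated across genes with r = 0.917, where genes are not independent replicates. Both lay on the same slide. Of 12 adipocyte markers, 11 were measured on both arrays and 9 of these were higher in SPAD, with a summed signal of 136805 in SPAD and 56340 in SVCD. The largest differences were those of Car3 (8.56), Cfd (7.34) and Plin4 (5.06). Adipoq, the adipokine adiponectin, had a signal of 336 in SPAD and 22.7 in SVCD, Lpl went the other way (2806 in SPAD, 20821 in SVCD), and neither array had Lep well above background. The SVCD array was higher for most smooth muscle and myofibroblast, macrophage, mesothelial and cell division markers, and the SPAD array for most endothelial markers; their values stand after the matrix genes. In such bulk RNA, fewer cells of a type and less RNA per cell cannot be told apart.

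Promoter sequence is shown for the genes at the ends of the range that have an entry in the promoter table: Thbs2 and Postn, the 2 such genes with the largest positive difference, and Tgfbi and Tnc, the 2 with the largest negative one. Each is the 250 bases before a transcription start, read 5′ to 3′ on the gene's own strand, from RefSeq on GRCm38.p6. Capitals mark matches to TATAAA, or to its reverse complement, and to the Sp1 motif GGGCGG.
Thbs2, chr17:14694263-14694512, minus strand: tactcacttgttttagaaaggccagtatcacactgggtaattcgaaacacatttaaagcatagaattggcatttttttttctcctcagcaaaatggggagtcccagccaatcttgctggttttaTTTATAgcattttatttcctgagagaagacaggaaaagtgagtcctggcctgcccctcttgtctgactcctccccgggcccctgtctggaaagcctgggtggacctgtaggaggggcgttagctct
Postn, chr3:54360857-54361106, plus strand: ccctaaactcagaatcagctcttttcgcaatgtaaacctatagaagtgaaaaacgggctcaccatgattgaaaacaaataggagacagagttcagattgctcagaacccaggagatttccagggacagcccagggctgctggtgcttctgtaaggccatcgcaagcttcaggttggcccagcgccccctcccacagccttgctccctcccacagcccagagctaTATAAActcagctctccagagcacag
Tgfbi, chr13:56609336-56609585, plus strand: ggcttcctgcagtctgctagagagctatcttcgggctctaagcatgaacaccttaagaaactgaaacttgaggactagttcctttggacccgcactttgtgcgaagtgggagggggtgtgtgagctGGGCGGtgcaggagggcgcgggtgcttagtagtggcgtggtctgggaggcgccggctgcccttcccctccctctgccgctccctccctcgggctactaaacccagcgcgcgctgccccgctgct
Tnc, chr4:64047016-64047265, minus strand: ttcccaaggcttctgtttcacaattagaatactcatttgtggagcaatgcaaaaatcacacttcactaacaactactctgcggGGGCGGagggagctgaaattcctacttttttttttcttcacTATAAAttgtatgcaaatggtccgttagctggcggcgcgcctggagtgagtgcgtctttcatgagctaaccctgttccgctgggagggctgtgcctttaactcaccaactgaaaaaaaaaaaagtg
The Postn sequence stands before the downstream one of its listed starts and has TATAAA beginning 26 bases before it. Thbs2 has the reverse complement of that motif beginning 126 bases before its start. Tnc, whose upstream start is shown, has GGGCGG at 167 and TATAAA at 126 bases before it, and Tgfbi has GGGCGG at 124. A match is a description of the letters, not a bound site.

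Of the 36 matrix genes measured on both arrays, 10 (27.8%) counted as higher in SPAD and 6 (16.7%) as lower, while 20 lay under 2-fold. Over all 14074 genes measured on both arrays, 14.4% were higher and 13.3% lower. Counting both directions, 16 of the 36 (44.4%) were at least 2-fold apart, beside 27.7% of all genes. Because the list was chosen with earlier results of these data known, this excess describes these genes and is no test of them. The largest differences were those of Thbs2, Postn, Mfap5, Tnxb and Dcn among the higher genes, and Tgfbi, Tnc, Mfap2 and Spp1 among the lower. A second Mfap2 probe lay at 0.05. Both directions were present: 26 of the 36 differences were above 0 and 10 below, their median was 0.23, beside 0.07 for all genes, and 21 of the 36 lay above the median of all genes. Scaling to the spike-in controls in place of the 75th percentile moves every difference by -0.84 and the median of all genes to -0.77. That leaves 5 matrix genes higher and 10 lower with a median of -0.61. The list's distance of 0.16 from the median of all genes is the same under both scalings, because a constant shift cannot alter it. It was 0.13 with normexp background correction, 0.19 with quantile normalization and 0.02 when dim probes were not filtered out.

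**Figure D1:**
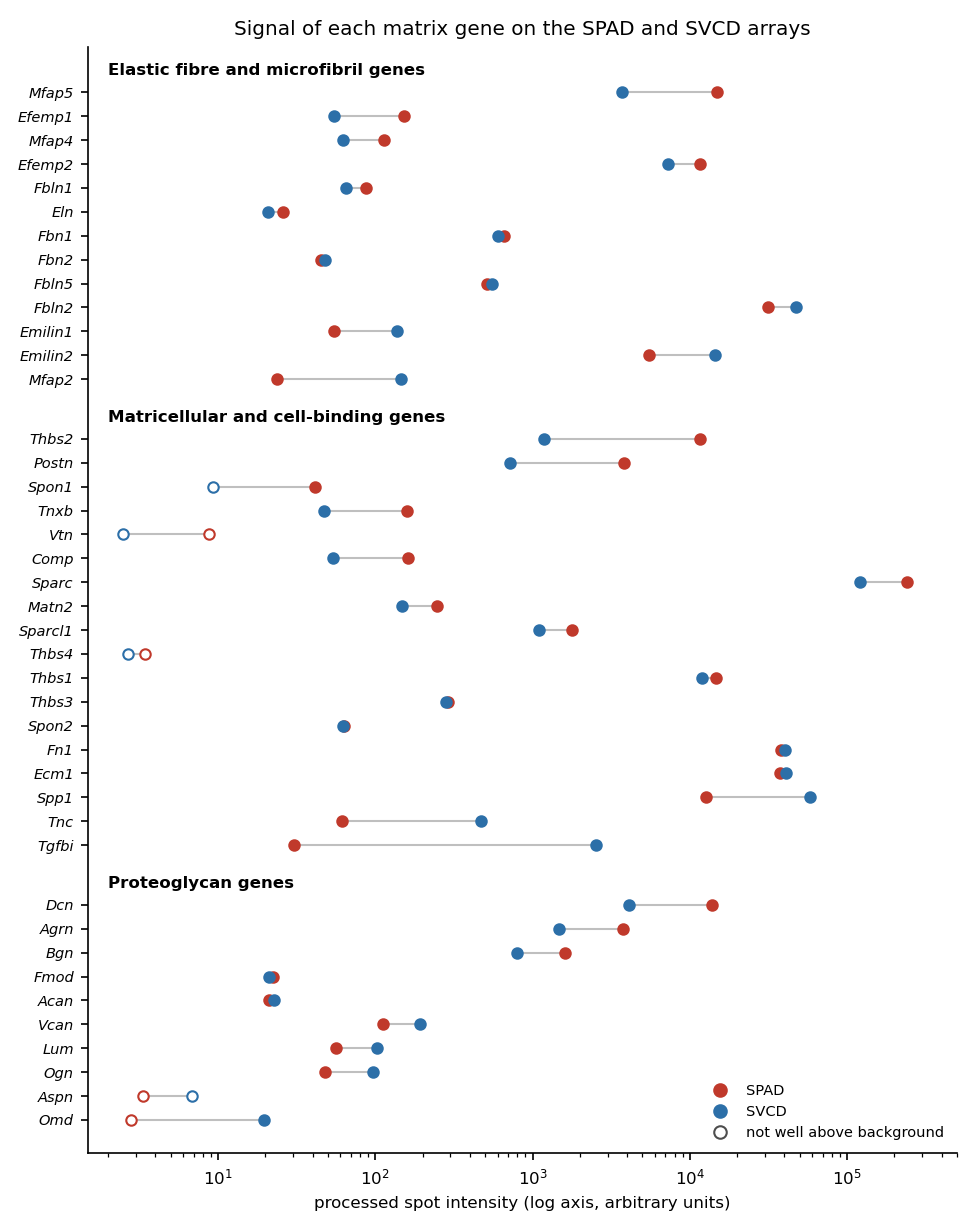
Processed spot intensity (log axis, arbitrary units) of each matrix gene with a probe, SPAD in red and SVCD in blue, joined by a line; open circles were not well above background. Most pairs lie close together, while Tgfbi spans 30.4 in SPAD and 2540 in SVCD, and Thbs2 spans 11635 in SPAD and 1187 in SVCD.

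Beyond these, Spon1 was well above background in SPAD alone and Omd in SVCD alone, and Vtn, Thbs4 and Aspn in neither. For the first 2, the brighter array is set against the other array's own signal for the probe or the lowest signal well above background there, whichever is higher, which gives a bound.

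The elastic fibre and microfibril genes were measured on both arrays in all 13 cases. Of these, 2 were higher in SPAD, 3 lower and 8 under 2-fold, with a median difference of 0.26 (-0.58 under spike-in scaling). Mfap5, a microfibril-associated glycoprotein that binds fibrillin, had a signal of 14844 in SPAD and 3679 in SVCD, a difference of 2.14 ± 0.08 or 4.40-fold. Its relative Mfap2 went the other way on the probe with the higher mean log2 signal over both arrays. That probe had a signal of 23.6 in SPAD and 146 in SVCD and a difference of -2.50 ± 0.34. A second Mfap2 probe to the same transcript had 39.4 in SPAD and 41.6 in SVCD, a difference of 0.05 ± 0.49, so the probes of this gene disagree and its direction rests on 1 probe. The first Mfap2 probe was the brighter of the pair in SVCD but the dimmer in SPAD. The differences of Mfap5, which has 1 probe, and of that Mfap2 probe lay 4.64 ± 0.35 log2 units apart. This error does not cover the disagreement between the Mfap2 probes. Mfap4, a fibrinogen-domain protein of microfibrils, stood just under the 2-fold mark, with a signal of 114 in SPAD and 62.7 in SVCD and a difference of 0.98 ± 0.13.

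The fibulins, short glycoproteins that bridge elastin, fibrillin and the cell surface, differed among themselves. Efemp1 (fibulin-3) was the one past 2-fold, with a signal of 151 in SPAD and 54.5 in SVCD and a difference of 1.60 ± 0.13. With normexp background correction that difference was 0.93. Efemp2 (fibulin-4), needed to assemble elastic fibres and to cross-link elastin, had a signal of 11609 in SPAD and 7236 in SVCD, a difference of 0.81 ± 0.08. Fbln1 had 87.1 in SPAD and 65.6 in SVCD (0.53 ± 0.13), and Fbln2 had 31583 in SPAD and 47075 in SVCD (-0.45 ± 0.08), so these 2 lay 0.98 ± 0.16 log2 units apart. Fbln5, which tethers elastin to integrins, gave the same scaled level on both arrays within its error: 510.5 in SPAD and 555 in SVCD, a difference of 0.01 ± 0.09. Second probes of Fbln1 and Fbln5 were dim, that of Fbln1 at 11.1 in SPAD and 11.7 in SVCD, well above background in SVCD alone, and that of Fbln5 at 2.75 in SPAD and 2.36 in SVCD, on neither array.

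The scaffold genes Fbn1, Fbn2 and Eln lay under 2-fold with the 75th percentile scaling, and below 0 with spike-in scaling. Fbn1, the main fibrillin of adult microfibrils, had a signal of 663 in SPAD and 606 in SVCD, a difference of 0.26 ± 0.09. Fbn2, the fibrillin best known from development, had 45.0 in SPAD and 47.8 in SVCD (0.04 ± 0.34), and its second probe, well above background in SVCD alone, had 8.48 in SPAD and 14.4 in SVCD. Eln, elastin, was dim at 26.0 in SPAD and 20.7 in SVCD, and its difference of 0.45 did not exceed its error of 0.49. Both emilins, elastin-microfibril interface proteins, were lower in SPAD by a like amount. Emilin2 had a signal of 5483 in SPAD and 14455 in SVCD (-1.27 ± 0.08), and Emilin1 had 54.6 in SPAD and 138 in SVCD (-1.21 ± 0.34). The Emilin1 difference was -0.70 with normexp correction.

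The matricellular and cell-binding list held both extremes. Of its 15 genes measured on both arrays, 5 were higher in SPAD, 3 lower and 7 under 2-fold, with a median difference of 0.42 (-0.42 under spike-in scaling). Thbs2, thrombospondin-2, a matrix-modulating glycoprotein that restrains angiogenesis, had a signal of 11635 in SPAD and 1187 in SVCD. Its difference of 3.42 ± 0.08, or 10.7-fold, ranked 150 from the top among all 14074 genes. Its closest relative did not share this: Thbs1, an activator of latent TGF-β, had 14737 in SPAD and 12036 in SVCD, a difference of 0.42 ± 0.08. The 2 differences lay 3.00 ± 0.11 log2 units apart. Thbs3 had 288 in SPAD and 280 in SVCD (0.17 ± 0.09), with 0.21 on a second probe. Comp, the pentameric thrombospondin named for cartilage, had 162 in SPAD and 53.7 in SVCD, a difference of 1.72 ± 0.13 (1.01 with normexp correction). Thbs4, best known from tendon and muscle, was well above background on neither array, with 3.42 in SPAD and 2.66 in SVCD.

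**Figure D2:**
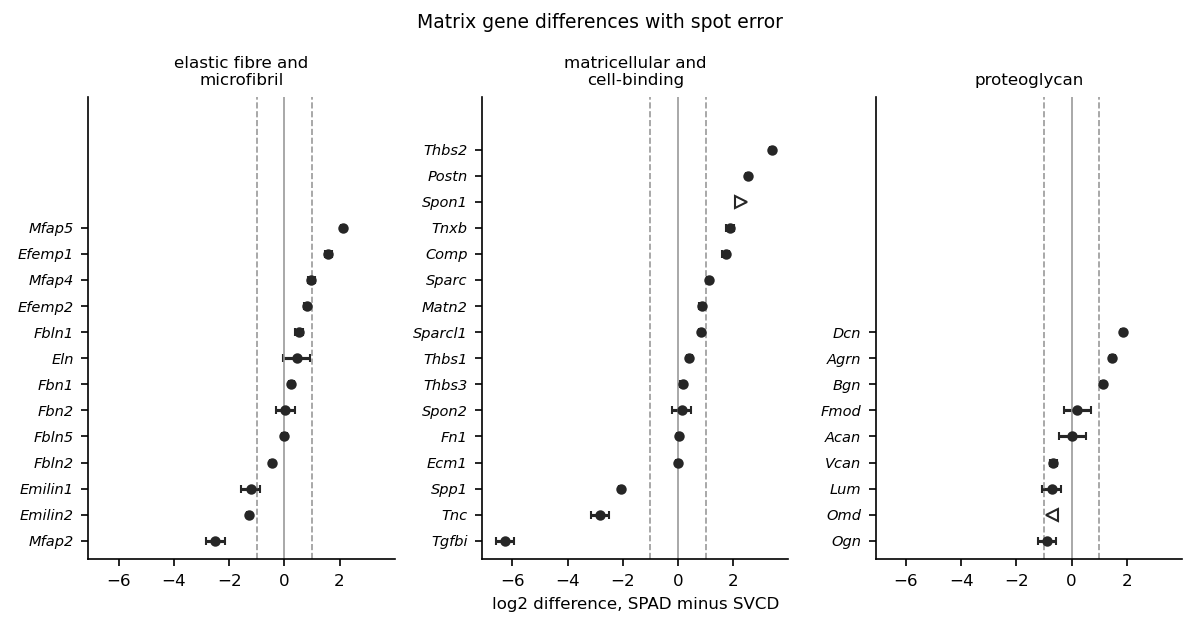
Difference of each matrix gene (log2, SPAD minus SVCD, after 75th percentile scaling) in the 3 groups, with the spot error as bars; open triangles are bounds for genes well above background on 1 array and dashed lines mark 2-fold. Elastic fibre genes spread from Mfap5 at 2.14 to Mfap2 at -2.50 (0.05 on its second probe), and matricellular genes from Thbs2 at 3.42 to Tgfbi at -6.26. No proteoglycan gene was 2-fold lower on the probe shown, though a second Vcan probe lay at -1.34. Spike-in scaling would move all points by -0.84.

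Postn and Tgfbi are the fasciclin-domain pair, secreted proteins that bind integrins and collagen, and they stood at opposite ends. Postn, periostin, had a signal of 3789 in SPAD and 714 in SVCD, a difference of 2.53 ± 0.08 or 5.78-fold. Tgfbi, named for its induction by TGF-β, had a signal of 30.4 in SPAD and 2540 in SVCD. Its difference of -6.26 ± 0.33, or 76.6-fold lower in SPAD, ranked 11 from the bottom among all 14074 genes. With normexp background correction in place of the processed signal the Tgfbi difference was -4.84. The paired genes lay 8.79 ± 0.34 log2 units apart.

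The tenascins also opposed each other. Tnc, tenascin-C, a glycoprotein of remodelling and injured tissue, had a signal of 61.3 in SPAD and 471 in SVCD, a difference of -2.82 ± 0.33 or 7.04-fold lower in SPAD. A second Tnc probe gave 35.6 in SPAD and 252 in SVCD (-2.70 ± 0.33), and normexp correction gave -1.83 for the gene. Tnxb, tenascin-X, a stabiliser of collagen networks in connective tissue, had 158 in SPAD and 47.0 in SVCD, a difference of 1.88 ± 0.13 (1.20 with normexp correction). The 2 tenascins lay 4.70 ± 0.36 log2 units apart.

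Spp1 (osteopontin), a phosphoprotein made by macrophages and bone cells that binds integrins and CD44, was the other lower gene of the list. Its signal was 12720 in SPAD and 58116 in SVCD, a difference of -2.07 ± 0.08 or 4.19-fold lower in SPAD. Sparc, a collagen-binding glycoprotein that hinders adipogenesis in mice, had a signal of 241423 in SPAD and 121357 in SVCD. That made a difference of 1.12 ± 0.08, with 1.53 ± 0.08 on a second probe; after quantile normalization it was 0.87, under the 2-fold mark. Its homologue Sparcl1 had 1782 in SPAD and 1093 in SVCD (0.83 ± 0.08). Spon1, F-spondin, of the thrombospondin-repeat family, had 41.5 in SPAD and 9.23 in SVCD, where it was not well above background, and was at least 4.90-fold higher in SPAD. Spon2, mindin, an integrin-binding relative, had 63.2 in SPAD and 62.6 in SVCD (0.14 ± 0.34).

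Fn1, fibronectin, the adhesive glycoprotein on which much of the matrix assembles, showed almost no difference: its signal was 37847 in SPAD and 40272 in SVCD, a difference of 0.04 ± 0.08. Ecm1, a secreted glycoprotein of skin and vessels, had 37338 in SPAD and 40635 in SVCD (0.00 ± 0.08), with 0.20 on a second probe. Under spike-in scaling the differences of Fn1 and Ecm1 were -0.80 and -0.84, so near-equality did not hold there. They were -0.04 and -0.07 with array median scaling, and -0.14 and -0.18 with quantile normalization. Matn2, a matrilin that links matrix filaments, had 247 in SPAD and 147 in SVCD, a difference of 0.87 ± 0.12. Vtn, vitronectin, an adhesive glycoprotein made mainly by liver, was read from 10 spots and was well above background on neither array, with a mean of 8.75 in SPAD and 2.49 in SVCD.

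Of the 8 proteoglycan genes measured on both arrays, 3 were higher in SPAD, none lower and 5 under 2-fold, with a median difference of 0.11 (-0.081 after quantile normalization and -0.73 under spike-in scaling, where 1 was higher and 3 lower). Dcn, decorin, a small leucine-rich proteoglycan that binds collagen and TGF-β, had a signal of 13763 in SPAD and 4111 in SVCD, a difference of 1.87 ± 0.08 or 3.65-fold. Bgn, biglycan, of the same class, had 1606 in SPAD and 798 in SVCD (1.13 ± 0.08). Agrn, agrin, a heparan sulfate proteoglycan of basement membranes and synapses, had 3742 in SPAD and 1465 in SVCD, a difference of 1.48 ± 0.08. Its second, dim probe had 25.7 in SPAD and 21.6 in SVCD (0.37 ± 0.49), and the mean over both probes was 0.93.

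The other leucine-rich proteoglycans did not follow decorin. Lum, lumican, a regulator of collagen fibril diameter, had a signal of 56.6 in SPAD and 102 in SVCD, a difference of -0.72 ± 0.34, which was 2.59 ± 0.35 log2 units below that of Dcn. Ogn, osteoglycin, had 47.6 in SPAD and 96.3 in SVCD (-0.89 ± 0.34). Omd, osteomodulin, had 2.78 in SPAD, not well above background, and 19.5 in SVCD, and was at least 1.65-fold lower in SPAD. Aspn, asporin, was well above background on neither array, with 3.34 in SPAD and 6.81 in SVCD. These last 3 are neighbours on chromosome 13 (GRCm38.p6), where the starts of Aspn and Omd lie 38 kb apart and those of Omd and Ogn 25.6 kb. Fmod, fibromodulin, was dim at 22.4 in SPAD and 21.1 in SVCD (0.21 ± 0.49).

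Among the large chondroitin sulfate proteoglycans, Vcan, versican, which binds hyaluronan in loose matrix, had 112 in SPAD and 193 in SVCD on its main probe, a difference of -0.66 ± 0.13. A probe to another Vcan transcript had 74.3 in SPAD and 205 in SVCD, a difference of -1.34 ± 0.13 that lay past 2-fold, and the remaining, dim probe had 2.75 in SPAD and 10.7 in SVCD, well above background in SVCD alone. Acan, the cartilage proteoglycan aggrecan, was dim on both arrays at 21.1 in SPAD and 22.8 in SVCD (0.02 ± 0.49).

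**Figure D3:**
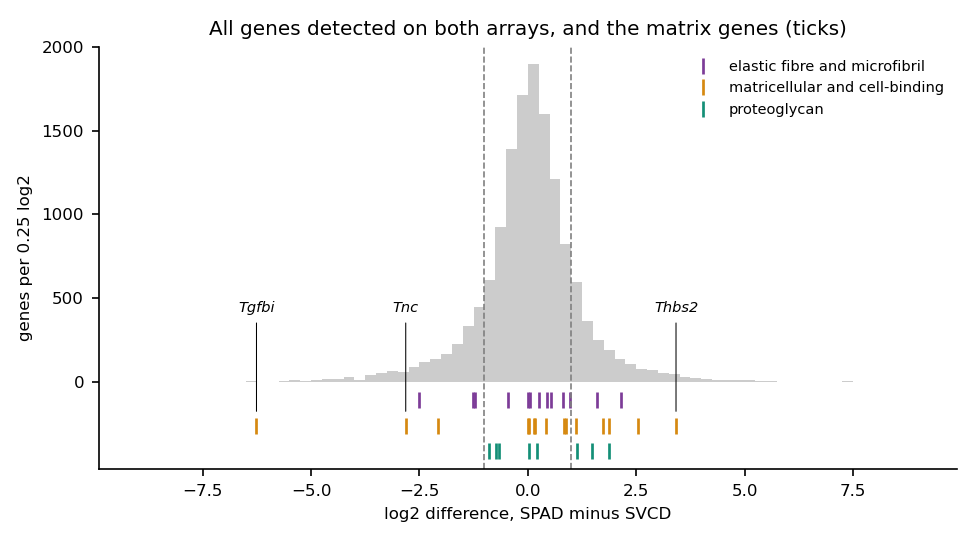
Histogram of the differences (log2, SPAD minus SVCD) of all 14074 genes measured on both arrays, with ticks for the matrix genes in 3 colours and dashed lines at 2-fold. The matrix genes spread over the range on both sides of 0 with a median of 0.23, and Tgfbi lies at -6.26, far from the rest of them.

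Across the 7 matrix genes with several probes measured on both arrays, 6 had every such probe on the same side of 0, and 2 genes, Mfap2 and Agrn, had probes 1 or more log2 units apart. No gene counted as higher or lower had the opposite sign under any of the 7 other settings. Of the 16 such genes, 11 stayed past 2-fold under the 6 settings other than spike-in scaling. The exceptions were Efemp1, Emilin1 and Mfap2 (-0.97) with normexp, Sparc with quantile normalization and Agrn with the mean over probes. These 6 settings were not all separate checks. Leaving out the filter kept these values unchanged, the deposited table shifted all of them by -0.0019 and array median scaling by -0.07. The mean over probes could alter only genes with several probes measured on both arrays.

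**Figure D4:**
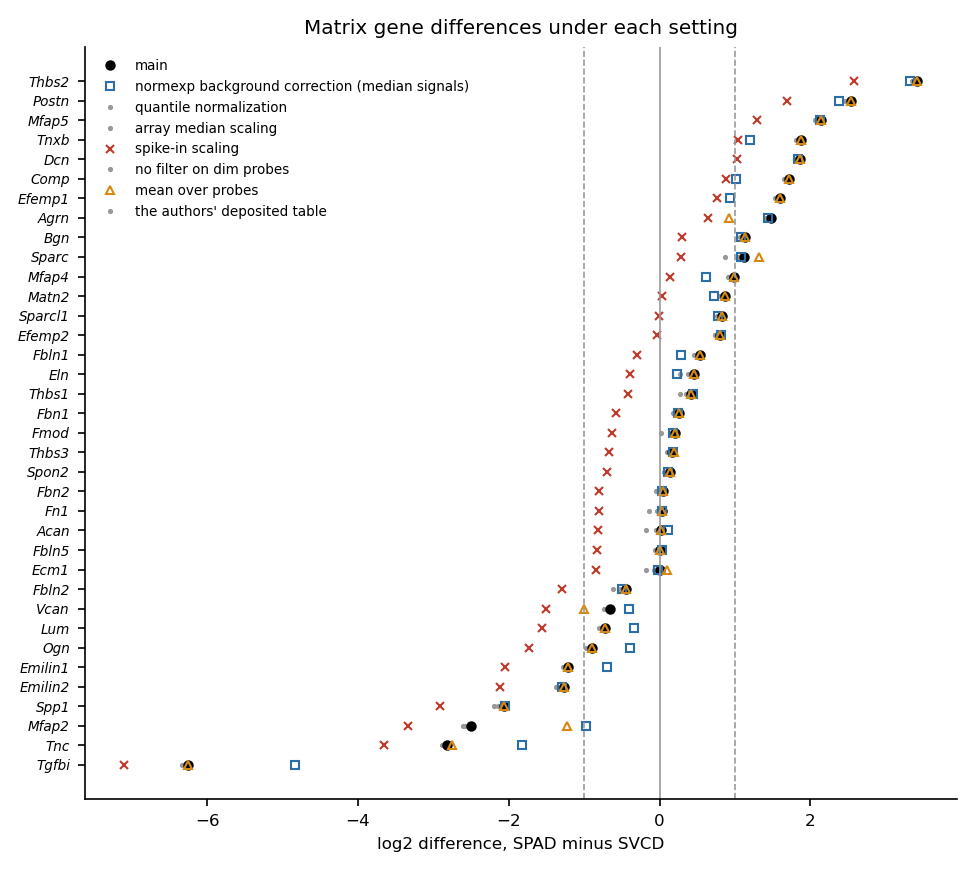
Difference of each matrix gene (log2, SPAD minus SVCD) under the main setting (black) and 7 others, ordered by the main value, with dashed lines at 2-fold. Spike-in scaling (red crosses) moves every gene by -0.84, and normexp correction (blue squares) puts Tgfbi at -4.84 and Tnc at -1.83, beside -6.26 and -2.82 under the main setting.

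Markers of the cell types that such preparations could hold were read beside the matrix genes. Smooth muscle and myofibroblast markers summed to 18457 in SPAD and 247828 in SVCD, with 6 of the 7 measured on both arrays lower in SPAD, among them Cnn1 (-5.35), Acta2 (-3.77) and Tagln (-3.59), while Myh11 lay at 0.55. Macrophage markers summed to 169320 in SPAD and 281171 in SVCD, with 5 of 9 lower in SPAD, Aif1 at -4.72, Csf1r at -4.07 and Mrc1 at -2.72, while Lyz2 lay at 0.35 and Cd14 at 0.11. Of the macrophage list, Fcgr1 and Cx3cr1 were well above background in SVCD alone. Apart from Myh11, Lyz2 and Cd14, the markers of both lists stood in the same direction as Tgfbi, Tnc, Spp1 and the emilins, and their part in those differences was not tested.

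Mesothelial markers summed to 1583 in SPAD and 17574 in SVCD, with 4 of 6 lower in SPAD, among them the keratins Krt8 (-5.57) and Krt18 (-5.41) and mesothelin, Msln (-4.55); Gpm6a was well above background on neither array. All 6 cell division markers were lower in SPAD and summed to 1880 in SPAD and 26431 in SVCD, with Ccna2, cyclin A2, at -5.64, Ccnb1, cyclin B1, at -5.07 and Cdk1, their kinase partner, at -4.94. Endothelial markers summed to 38483 in SPAD and 10132 in SVCD, with 10 of 12 higher in SPAD, among them Sox17 (3.74), Erg (3.43) and Robo4 (3.41), while Vwf (-0.92) and Kdr (-0.49) lay below 0. Most endothelial and adipocyte markers stood in the direction of Thbs2, Postn, Mfap5 and Dcn, and their part was not tested either. The fibroblast and progenitor list, the usual source of this matrix, was mixed, with 3 of 10 higher and 2 lower and sums of 21721 in SPAD and 36183 in SVCD. Under spike-in scaling 1 was higher and 5 lower. Dpt, the 1 gene of this list well above background on a single array, was so in SPAD and at least 2.57-fold higher there. Within the list Thy1 lay at 3.12 ± 0.08, Pi16, dim on both arrays, at 1.51 ± 0.49 and Dlk1 at -1.36 ± 0.34. The collagen genes Col1a1 and Col1a2 lay at -0.99 and -1.18, while Dcn, Postn and Thbs2 were higher in SPAD. The 6 chondrocyte markers did not go one way, beside Comp and Acan. Col11a2 lay at 2.88 and Snorc at 0.36, Col2a1 was well above background in SPAD alone (at least 2.42-fold higher), Sox9 in SVCD alone (at least 3.88-fold lower in SPAD), and Col9a1 and Matn1 on neither array. The list summed to 168 in SPAD and 82.6 in SVCD, and its part in the Comp difference was not tested.

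Genes that act on the same structures, and relatives of such genes, were read from further lists, none of them part of the 42. The list headed elastic fibre assembly also takes in genes without a set part in that assembly. Of its 16 genes measured on both arrays, 6 were higher, 3 lower and 7 under 2-fold, with a median of 0.66 (-0.18 under spike-in scaling, with 1 higher and 4 lower). Lox, the lysyl oxidase that cross-links elastin and collagen, had a signal of 5173 in SPAD and 1640 in SVCD (1.78 ± 0.08, with 1.60 on a second probe), and Fbln7 had 160 in SPAD and 32.5 in SVCD (2.43 ± 0.37). Adamtsl2, a secreted protein that binds fibrillin-1, had 90.0 in SPAD and 6.08 in SVCD, where it was not well above background, and was at least 11.4-fold higher. In the other direction Ltbp2, a fibrillin-binding latent TGF-β binding protein, had 1399 in SPAD and 8658 in SVCD (-2.50 ± 0.08), Adamts10 lay at -2.56 ± 0.34 and Adamtsl4 at -1.61 ± 0.11.

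Of 18 further matricellular and adhesive genes, 5 were higher, 3 lower and 10 under 2-fold, with a median of 0.12 (-0.02 after quantile normalization and -0.72 under spike-in scaling, with 2 higher and 7 lower). Ccn4, a CCN protein downstream of Wnt signalling, had 36.9 in SPAD and 809 in SVCD (-4.33 ± 0.33, with -4.32 on a second probe), Smoc2 lay at -2.96 ± 0.10 and Srpx at -1.93 ± 0.34. Abi3bp had 194 in SPAD and 2.02 in SVCD and was at least 24.6-fold higher, while Igfbp7 lay at 2.02 ± 0.37 and Srpx2 at 1.88 ± 0.08.

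Of 18 other proteoglycan genes, 6 were higher, 2 lower and 10 under 2-fold, with a median of -0.23. It was 0.011 with normexp, with 3 higher and 1 lower, and 0.45 over 26 genes without the filter on dim probes. That 0.45 is the gap between the lowest scaled signals well above background on the 2 arrays. Without the filter, genes below both of these were set to them, so it is no difference of the genes. Under spike-in scaling 2 were higher and 10 lower, with a median of -1.07. Esm1, the endothelial proteoglycan endocan, had 43473 in SPAD and 1355 in SVCD, a difference of 5.13 ± 0.08. Gpc6, a glypican, was at least 25.2-fold higher in SPAD, and Prg4, lubricin, lay at 2.92 ± 0.12 on the probe above background. The lower genes were the syndecan Sdc3 (-1.45 ± 0.08) and Cspg4 (-1.41 ± 0.34), the NG2 proteoglycan of pericytes.

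The glycosaminoglycan synthesis genes, not all of them chain-building enzymes, had a median of -0.39, with 4 of 32 higher, 5 lower and 23 under 2-fold. Under spike-in scaling none was higher and 18 were lower, with a median of -1.23. Has2, a hyaluronan synthase, had 9.32 in SPAD, not well above background, and 522 in SVCD, and was at least 44.3-fold lower in SPAD. Chst3, a chondroitin sulfotransferase, had 6.56 in SPAD and 453 in SVCD and was at least 38.5-fold lower, and Dse, the epimerase that makes dermatan sulfate, lay at -2.16 ± 0.11. The higher enzymes included Chpf2 (1.36 ± 0.08), Chst15 (1.28 ± 0.37) and Ugdh (1.22 ± 0.08), which makes the UDP-glucuronate that all these chains need.

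**Figure D5:**
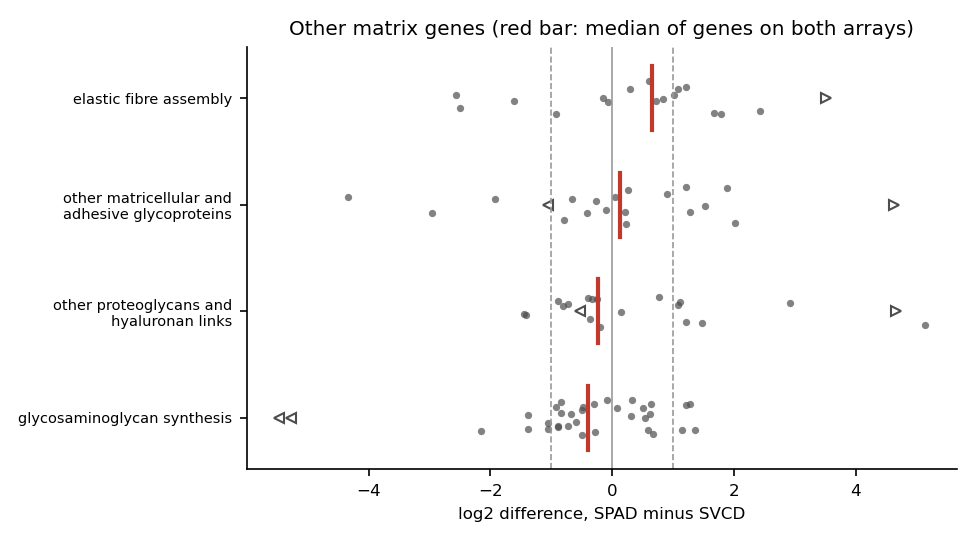
Differences (log2, SPAD minus SVCD) of genes outside the 42 in 4 related lists, each dot a gene measured on both arrays, each open triangle a bound and each red bar the median; dashed lines mark 2-fold. The medians run from 0.66 for elastic fibre assembly to -0.39 for glycosaminoglycan synthesis, all of them below 0 under spike-in scaling.

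Promoter letters were searched in the 250 bases before each listed start of 29 of the 42 genes, among them 7 of the 10 higher and 6 of the 6 lower genes, on both strands. The AP-1 motif TGANTCA was in promoters of 3 genes, Efemp1, Tnxb and Ecm1, and in 6.75% of all promoters. GGGCGG was in 17 of the 29, with 3 of the 7 higher and 4 of the 6 lower genes, and in 32.7% of all promoters. TATAAA was in 8 of the 29, among them Thbs2 and Postn of the higher and Tnc and Spp1 of the lower genes, and in 12.4% of all promoters. The TEAD motif GGAATG was in 6, of which Emilin2 and Mfap2 were lower genes and none was a higher gene, and in 12.6% of all promoters. No promoter of these genes held the CArG box (1.47% of all promoters) or the C/EBP motif TTGCGCAA (0.164%). Matches of different motifs overlapped in 1 case, and genes with several listed starts had more bases searched than those with 1. The gene counts take a match at any listed start, while the percentages are of single promoter entries. By entry, GGGCGG was in 21 of the 39 of these genes, TATAAA in 9, the TEAD motif in 6 and the AP-1 motif in 3.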

How the data were processed

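RNA of 1 SPAD and 1 SVCD sample was measured on 1 Agilent one-colour array each. The submitters' processing notes name Agilent Feature Extraction 10.7.3.1 as the software. Each spot's intensity in the deposited scanner files is background-subtracted and linear, per the file headers, with flags for spots well above background. The authors also deposited a table of log2 values whose columns are opposite in sign, with medians of 0.16 in SPAD and -0.16 in SVCD. Its centring leaves only differences readable, and how it was scaled is not stated there.

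Of 44397 spots an array, 1377 controls and 73 (SPAD) or 85 (SVCD) outlier spots were left out, which gave 39425 probes after repeat spots were averaged. Probes were named by transcript accession through a RefSeq table (GRCm38.p6, used for names, gene order and promoter sequence, since the array design uses mm9); 27506 matched. Log2 intensity minus the array's 75th percentile was compared, and a gene was read from whichever of its probes had the highest mean on the log2 scale. A gene not well above background on 1 array got a bound against its own signal there or the lowest signal well above background there, whichever is higher. Spot error came from probes printed 10 times, in 6 bins of signal. The members and lists were chosen with earlier results of these data known. All 42 members are accounted for. Of other lists, up to 3 genes per direction past 2-fold with the largest difference were named. Of marker lists, the 3 with the largest difference and defining markers not above background were named. A few other markers were named after their values were seen. These were Adipoq, Lpl, Lyz2, Cd14, Myh11, Col1a1, Col1a2, Vwf, Kdr, Snorc and some, not all, of the genes with a bound. Alternatives were normexp (limma 3.58.1, R 4.3.3, offset 50), quantile, array median and spike-in scaling, no filter on dim probes, the mean over probes and the deposited table. The planned normexp input was the mean signal; the deposited columns used here were the median signals, so those were taken. Calculations used Python 3.11.15, numpy 2.4.6 and pandas 2.3.3, and the code was tested on simulated data. The number of arrays limits the precision.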

Additional observations from a re-analysis of the deposited data

How the results depend on the processing

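The counts of matrix genes at least 2-fold higher and lower in SPAD, 10 and 6, stayed within 1.5 times under every setting but spike-in scaling, which gave 5 and 10. Spike-in scaling used 8 of 10 control probes, whose raw log2 difference had a median of 0.71 and ran from 0.65 to 1.76. It put the median difference at -0.61 for all matrix genes, -0.58 for elastic fibre genes, -0.42 for matricellular genes and -0.73 for proteoglycan genes, and the higher share of the calls at 33.3% for matrix genes and 12.0% for all genes, beside 62.5% and 52.0% with the 75th percentile. Over all genes it called 731 higher and 5363 lower, and normexp called 1377 and 1331, beside 2029 and 1874. After quantile normalization the median was 0.27 for matricellular and -0.081 for proteoglycan genes. Without the filter on dim probes the median of the matrix genes was 0.42 and that of all genes 0.40. The setting without the filter took in the 5259 genes well above background on neither array. Those below the lowest signal well above background on both arrays were set to these limits, which puts each at 0.45. Normexp was run with an added offset of 50, which by itself makes the differences of dim genes smaller. How much of the fall in calls came from the offset was not tested. Why values moved under the other settings was not tested, beyond the constant shift that a scaling makes. Of 252 values of single genes under the 7 settings, 189 moved by less than the spot error and 63 by more. The 189 include all values without the filter, which repeat the main ones, and all from the deposited table, shifted by -0.0019. They also include the mean over probes for genes with 1 probe measured on both arrays. The 189 is therefore not a count of separate checks. The 14 genes of 36 that had both signs among the settings all lay under 2-fold. No paired analysis was possible because each group holds 1 array. Dim genes, such as Eln, Fmod and Acan, have errors of 0.49 and their direction was not detectable at this signal.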
